A study of Homo sapiens with 21 samples.

Results

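Small nucleolar RNA (snoRNA) host genes and genes of the nonsense-mediated mRNA decay (NMD) machinery were followed in 21 RNA-seq libraries. The 32 genes on the list were 23 long noncoding snoRNA host genes (the SNHG genes, GAS5, ZFAS1 and DANCR) and 9 NMD factor genes (UPF1, UPF2, UPF3A, UPF3B, SMG1, SMG5, SMG6, SMG8 and SMG9). A gene was kept if it reached 1 CPM (a count scaled to the total of its library) in at least 3 of the 21 libraries, which held for 31 of the 32 genes and for 16556 of the 60671 genes of the table. The gene left out was SNHG14, with 1 to 9 counts per library and 0 libraries at 1 CPM. SNHG9 passed by its 6 HEK293T libraries alone and held under 1 CPM in every OCI-AML3 library, whereas the other 30 genes reached 1 CPM in all 21 libraries.

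Libraries were made from polyadenylated RNA of 2 human cell lines, and fell into 7 groups of 3 replicates. The acute myeloid leukaemia line OCI-AML3 was left untreated (0 h), or received DMSO or 1 μg/mL tunicamycin for 4 h or for 24 h. HEK293T cells, an embryonic kidney line, received DMSO or 1 μg/mL tunicamycin for 24 h. Tunicamycin blocks N-linked glycosylation and so brings about endoplasmic reticulum stress and the unfolded protein response (UPR), and DMSO is its solvent. Nothing in the labels says that replicates were separate cultures, so p-values measure the spread between these libraries. For each gene that spread was estimated over all 7 groups together, in both lines. A standard error or p-value in HEK293T cells thus draws on the OCI-AML3 libraries as well. In such bulk samples, fewer cells that express a gene and less of its RNA per cell cannot be told apart.

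Most human snoRNAs are cut from the introns of longer transcripts. Box C/D snoRNAs guide the methylation of ribosomal RNA, and box H/ACA snoRNAs guide its pseudouridylation. The spliced exons of many noncoding hosts, GAS5 being the best known, carry short open reading frames that end early, which makes the exported RNA a substrate of NMD when it is translated. In NMD the helicase UPF1 is bound by UPF2 and by UPF3A or UPF3B, which link it to exon junction complexes. The kinase SMG1, held in a complex with SMG8 and SMG9, phosphorylates UPF1, and phosphorylated UPF1 recruits SMG5 and the endonuclease SMG6. Several snoRNA hosts, like ribosomal protein genes, begin transcription at a C that opens a run of pyrimidines (a terminal oligopyrimidine start).

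The starts of 9 hosts are shown because the values below turn on these genes and because their starts differ in this feature. Each line holds 30 bases on the strand of the gene, 15 before the annotated start and 15 from it. Capitals mark a run that opens with C exactly at the annotated start and goes on with at least 4 more pyrimidines (C or T). GAS5, SNHG29 and SNHG1 are given at their commonest GENCODE release 44 start (shared by 50 of 91, 28 of 62 and 25 of 80 transcripts), and the others at the RefSeq start, all on GRCh38. Where the annotations differed in the run, the start that has it is shown, so that GAS5 and SNHG29 have none at the RefSeq start and SNHG32, SNHG5, SNHG4 and SNHG19 none at the GENCODE start.
GAS5, chr1:173867975-173868004, minus strand: caggcaccatactgtCTTTTCgaggtagga
ZFAS1, chr20:49278627-49278656, plus strand: aggaagccattcgttCTTTCgcgtctgcgg
SNHG32, chr6:31834901-31834930, plus strand: ctcgccattttagttCTTTTTgcgaagtgg
SNHG29, chr17:16439022-16439051, plus strand: cacataaggtgtgacCTTTTCattcccgtt
SNHG5, chr6:85678719-85678748, minus strand: gctgcgcacttcggtCTTTTacgtcggcct
SNHG4, chr5:139274086-139274115, plus strand: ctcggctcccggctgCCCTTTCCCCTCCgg
SNHG19, chr16:2155344-2155373, minus strand: ctcgcccgcccctgtCTTTTCggggtcgag
SNHG1, chr11:62855871-62855900, minus strand: ccggggagattcgttctcatttttctactg
DANCR, chr4:52712379-52712408, plus strand: tcggctgcgcgccccgcccttgcccagagt

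A run was found at a RefSeq start of 6 of the 19 hosts in that table (31.6%, against 5.14% of all 27305 genes) and at the commonest GENCODE start of 6 of the 22 hosts kept (27.3%, against 3.49% of 16488 genes). The 2 annotations place the start of a gene at different bases in many cases, and GAS5, SNHG4, SNHG5, SNHG8, SNHG19, SNHG29 and SNHG32 had the run in only 1 of the annotations. With either annotation counted, 10 of the 22 hosts had it (45.5%), against 6.98% of the 16488 genes. Since 19 of the 22 hosts but 11758 of the 16488 genes have a start in both, the shares among these were 9 of 19 (47.4%) and 8.62%. None of the NMD factor genes did (0 of 8 in RefSeq and 0 of 9 in GENCODE). A match describes these bases and was not tested as a site, and a missing match says only that these letters are not in this window. By RefSeq annotation, GAS5 spans 11 snoRNA genes, 10 of them of the box C/D kind, and SNHG1 spans 9. No gene of the snoRNA class was found within SNHG10 or SNHG20. Other classes of small RNA were not searched, so these 2 genes may still host some.

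Depth ran from 13838466 to 19961798 counts (median 16657737). Replicate 3 of tunicamycin at 24 h in OCI-AML3 cells had a scaling factor of 0.977 against 0.906 and 0.903 in its group, and without it 10 of the 11 members called at 24 h were still called, SNHG17 being lost and SNHG7 gained. Replicate 1 of DMSO at 4 h had a factor of 0.943 against 0.998 and 0.996, and without it 16 of the 19 members called at 4 h were still called, SNHG12, SNHG16 and UPF3B being lost and SNHG15 and UPF2 gained. UPR genes checked the treatment: HSPA5, DDIT3, DNAJB9 and HERPUD1 rose in all 3 tunicamycin comparisons, with log2 fold changes of 2.03 to 5.37. Myeloid markers fitted the OCI-AML3 label for PTPRC (272 CPM in untreated cells), SPI1, CSF3R, CD33 and LYZ, all at or near 0 in HEK293T cells, but MPO (1.51 CPM) and CD34 (0.233 CPM) were nearly absent. NEFL and PAX2 were at 0 in every OCI-AML3 library and were present in HEK293T cells. Some markers moved with tunicamycin in OCI-AML3 cells. Of the 6 HEK293T markers tested, the epithelial keratins KRT8 and KRT18 rose at 24 h, KRT18 from 0.922 to 1.86 CPM against 43.2 CPM in HEK293T cells in DMSO, and the 6 together held 3.16 to 3.67 CPM in DMSO and 4.79 to 5.56 CPM with tunicamycin. Of the 6 myeloid markers tested, PTPRC rose at both times, LYZ fell at both, CD33 fell at 4 h and SPI1 at 24 h. Summed over the 7 listed, the myeloid markers held 750 to 779 CPM in DMSO and 819 to 831 CPM with tunicamycin at 4 h, and 854 to 906 and 897 to 964 CPM at 24 h. The part of these markers in the results was not tested. CPM below are scaled by TMM (trimmed mean of M values), fold changes are on a log2 scale with their standard errors, and the threshold for a call was 0.05 on the p-value of edgeR's quasi-likelihood test, adjusted by Benjamini-Hochberg over all 16556 genes.

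The first question was how tunicamycin changed these transcripts in OCI-AML3 cells at 4 h. Of the 22 hosts, 11 rose, 4 fell and 7 did not pass the test. Among all genes tested, 16.4% rose and 15.6% fell in this comparison. The median log2 fold change of the hosts was 0.29, against 0.00 over all genes. The rises were the larger changes: SNHG32, SNHG1, ZFAS1 and GAS5 rose past a log2 fold change of 1, which 3.68% of all genes did, and 0 hosts fell as far (1.6% of all genes).

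SNHG32, host of the box C/D snoRNAs SNORD48 and SNORD52, stood at 138, 128 and 129 CPM in the DMSO libraries and at 339, 369 and 351 CPM with tunicamycin. It rose 2.68-fold, a log2 fold change of 1.42 ± 0.10 (adjusted p = 2.73e-10). SNHG32 overlaps an annotated gene without a symbol on the same strand, so its counts are less certain. SNHG1, the host of a cluster of box C/D snoRNAs, went from 102, 103 and 109 CPM to 250, 275 and 274 CPM. This was a 2.55-fold rise, with a log2 fold change of 1.35 ± 0.10 (adjusted p = 2.44e-10), and its tunicamycin libraries lay far above all other OCI-AML3 libraries. ZFAS1, which spans SNORD12, SNORD12B and SNORD12C and starts next to ZNFX1 on the opposite strand, went from 105, 81.6 and 82.5 CPM to 194, 204 and 195 CPM. The log2 fold change of ZFAS1 was 1.14 ± 0.10 (adjusted p = 2.78e-09), while that of its neighbour ZNFX1 was -0.46 ± 0.08 (adjusted p = 0.000101). GAS5, the growth arrest transcript, went from 318, 268 and 287 CPM to 505, 623 and 626 CPM, a log2 fold change of 1.01 ± 0.13 (adjusted p = 1.4e-06). GAS5 kept its call but ranged from 0.95 to 1.10 over the alternatives, and was not past 1 in 8 of 14, among them DESeq2, no TMM and those without DMSO replicate 2 or 3 or tunicamycin replicate 2 or 3. Without DMSO replicate 1, SNHG7 was past 1 as well. Every tunicamycin library lay above every DMSO library in SNHG32, SNHG1, ZFAS1 and GAS5.

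The other hosts that rose at 4 h were SNHG8 (0.89), SNHG7 (0.87), SNHG17 (0.76), SNHG11 (0.75), SNHG29 (0.44), SNHG5 (0.41) and SNHG12 (0.31), all values being log2 fold changes. SNHG29 had 710, 467 and 470 CPM in DMSO against 742, 772 and 720 CPM with tunicamycin, its log2 fold change ranged from 0.34 to 0.67 over the alternatives, the highest without DMSO replicate 1, and it was not called without DMSO replicate 2 or 3 (adjusted p of up to 0.0564). SNHG12 had 49.2, 45.4 and 50.4 CPM in DMSO and 58.6, 63.2 and 58.2 CPM with tunicamycin, with no overlap. Its log2 fold change stayed between 0.27 and 0.34 over the alternatives, but it lost its call without TMM and when any 1 of the 6 libraries was left out (adjusted p of up to 0.136).

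Tunicamycin for 4 h also lowered 4 hosts. SNHG4, the host of SNORA74A and SNORA74D inside the MATR3 locus, went from 36.5, 39.1 and 39.0 CPM to 20.5, 21 and 21.1 CPM, with no overlap, and its log2 fold change was -0.87 ± 0.13 (adjusted p = 1.64e-05). SNHG4 overlaps MATR3 on the same strand, and the main MATR3 gene, with a log2 fold change of -0.02 ± 0.10 (adjusted p = 0.951), did not pass the test. SNHG19, the host of SNORD60, was low in abundance, at 6.85, 8.29 and 8.17 CPM in DMSO and 4.53, 4.83 and 4.09 CPM with tunicamycin. It fell by 0.79 ± 0.13 on the log2 scale (adjusted p = 6.82e-05). DANCR, which spans SNORA26, went from 114, 100 and 103 CPM to 67.0, 76.5 and 73.6 CPM, a log2 fold change of -0.55 ± 0.10 (adjusted p = 0.000129). SNHG16, the host of SNORD1A, SNORD1B and SNORD1C, went from 233, 198 and 198 CPM to 183, 172 and 143 CPM, a log2 fold change of -0.34 ± 0.09 (adjusted p = 0.00733), and it lost its call without DMSO replicate 1 or tunicamycin replicate 3 (adjusted p of up to 0.0657). The hosts that rose and those that fell were both found among the genes whose start carries a pyrimidine run. At 4 h 7 of these 10 hosts rose and 2 fell, against 4 and 2 of the other 12. Among all genes, 16.4% rose and 15.6% fell. After 24 h the counts were 5 and 0 against 2 and 1 (22.9% and 21.2% of all genes). In HEK293T cells they were 6 and 0 against 1 and 1 (11.4% and 11.8% of all genes). The share called among all genes with a run was not taken, and the part of the run was not tested.

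**Figure D1:**
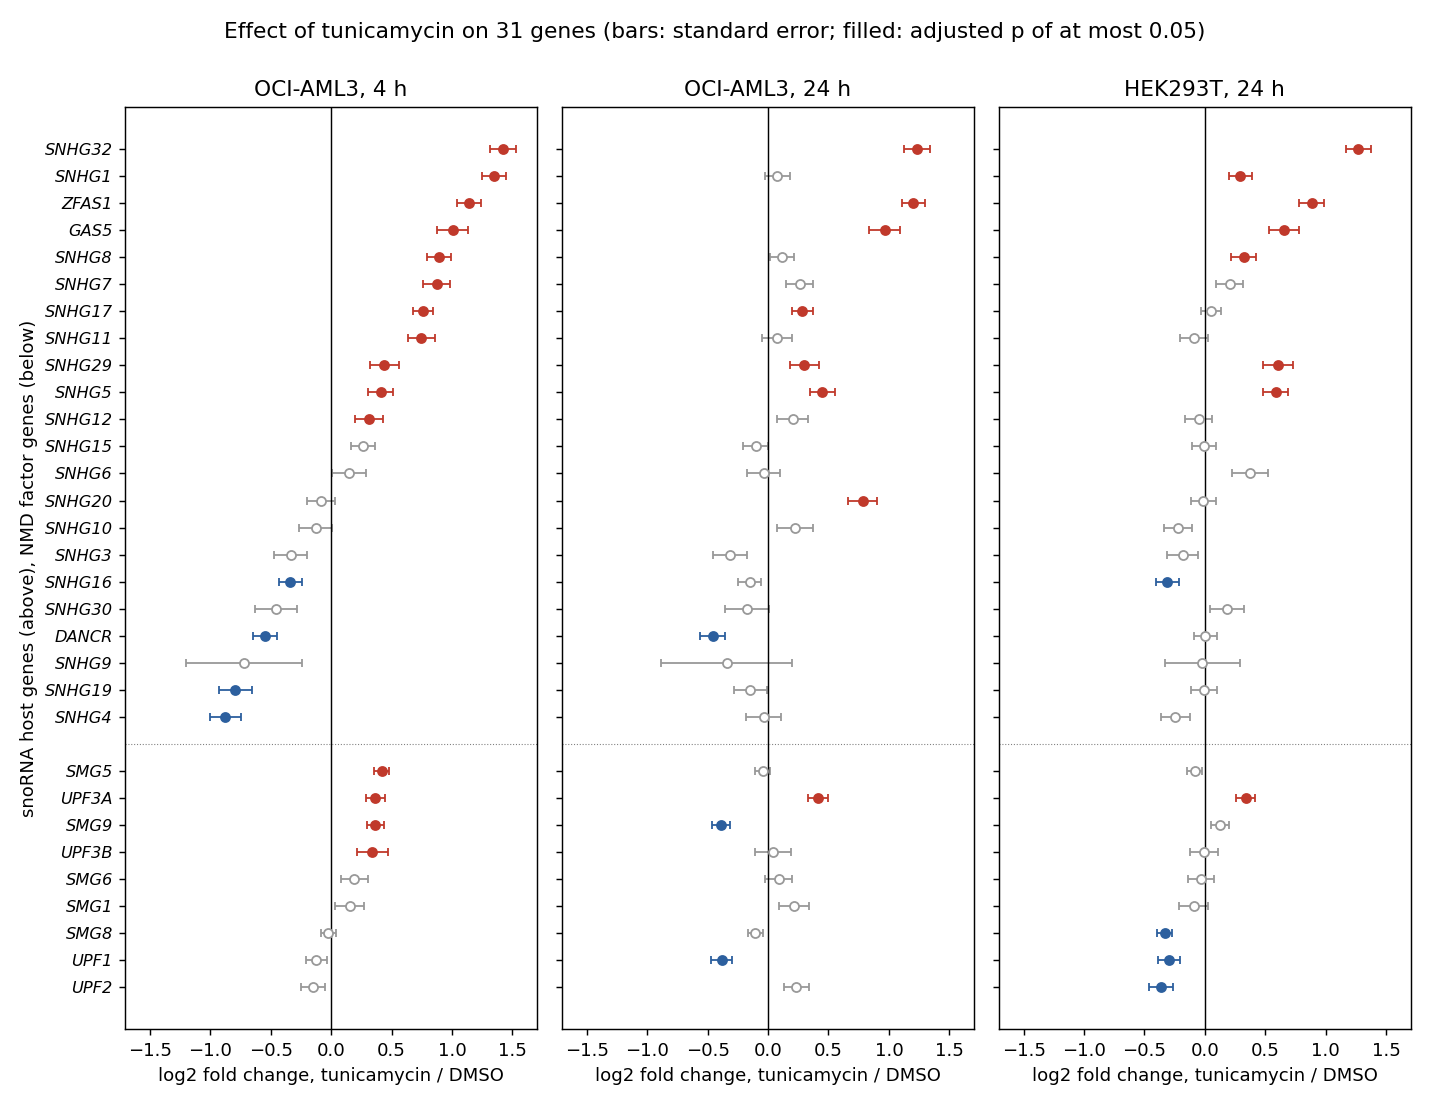
Log2 fold change of tunicamycin over DMSO for the 22 snoRNA host genes (above the dotted line) and 9 NMD factor genes (below it), for each cell line and time, in the order of the 4 h values. Points are fitted values, bars standard errors, filled points called genes (red higher, blue lower). SNHG32, ZFAS1 and GAS5 lie at 0.66 or above in all 3 panels, while SNHG1 falls from 1.35 at 4 h to 0.08 at 24 h.

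After 24 h of tunicamycin, 7 of the 22 hosts were higher than in DMSO at 24 h and 1 was lower, with 14 not called, and more genes moved overall (22.9% higher and 21.2% lower). The median log2 fold change of the hosts was 0.10, against 0.02 over all genes. SNHG32 and ZFAS1 rose past a log2 fold change of 1, as 5.03% of all genes did. SNHG32 stood at 181, 169 and 212 CPM in DMSO and at 473, 499 and 348 CPM with tunicamycin, and rose by a log2 fold change of 1.23 ± 0.10 (adjusted p = 2.57e-09). ZFAS1 went from 144, 145 and 157 CPM to 330, 395 and 299 CPM, a 2.3-fold rise with a standard error of 0.09 on the log2 scale (adjusted p = 9.31e-10). GAS5 went from 381, 420 and 507 CPM to 822, 1050 and 679 CPM, a log2 fold change of 0.97 ± 0.13 (adjusted p = 1.85e-06), and was past 1 without DMSO or tunicamycin replicate 3. The groups did not overlap in any of these 3 genes, though the tunicamycin libraries spread more widely than at 4 h, with replicate 2 the highest and replicate 3 the lowest in each gene.

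SNHG20 rose at 24 h, from 9.05, 10.3 and 14 CPM to 17.4, 19 and 20.7 CPM, a log2 fold change of 0.78 ± 0.12 (adjusted p = 1.95e-05). SNHG20 lies within the locus of SEC14L1 on the same strand, whose log2 fold change was 0.08 ± 0.10 (adjusted p = 0.581). SNHG5, the host of SNORD50A and SNORD50B, rose by 0.45 ± 0.10, although its groups overlapped, with 316, 335 and 369 CPM in DMSO and 485, 544 and 361 CPM with tunicamycin. It kept its call under every alternative, but its log2 fold change was 0.29 without tunicamycin replicate 2. SNHG29 (0.30) and SNHG17 (0.28) passed by little. SNHG29 had 788, 803 and 958 CPM in DMSO against 1040, 1210 and 888 CPM with tunicamycin, and it lost its call without DMSO replicate 1 or 2 or tunicamycin replicate 1 or 2, with limma voom, DESeq2 size factors, a replicate block, the filter of 8 libraries and the compared groups alone (adjusted p of up to 0.339). Its log2 fold change ranged from 0.15, without tunicamycin replicate 2, to 0.38 over these and the other alternatives. SNHG17 lost its call without the same DMSO libraries or without tunicamycin replicate 2 or 3, with the compared groups alone and with every gene of at least 1 count (adjusted p of up to 0.105). The host that fell was DANCR, from 77.6, 78.5 and 95.9 CPM to 63.9, 69.7 and 50.2 CPM, a log2 fold change of -0.46 ± 0.10 (adjusted p = 0.000701).

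**Figure D2:**
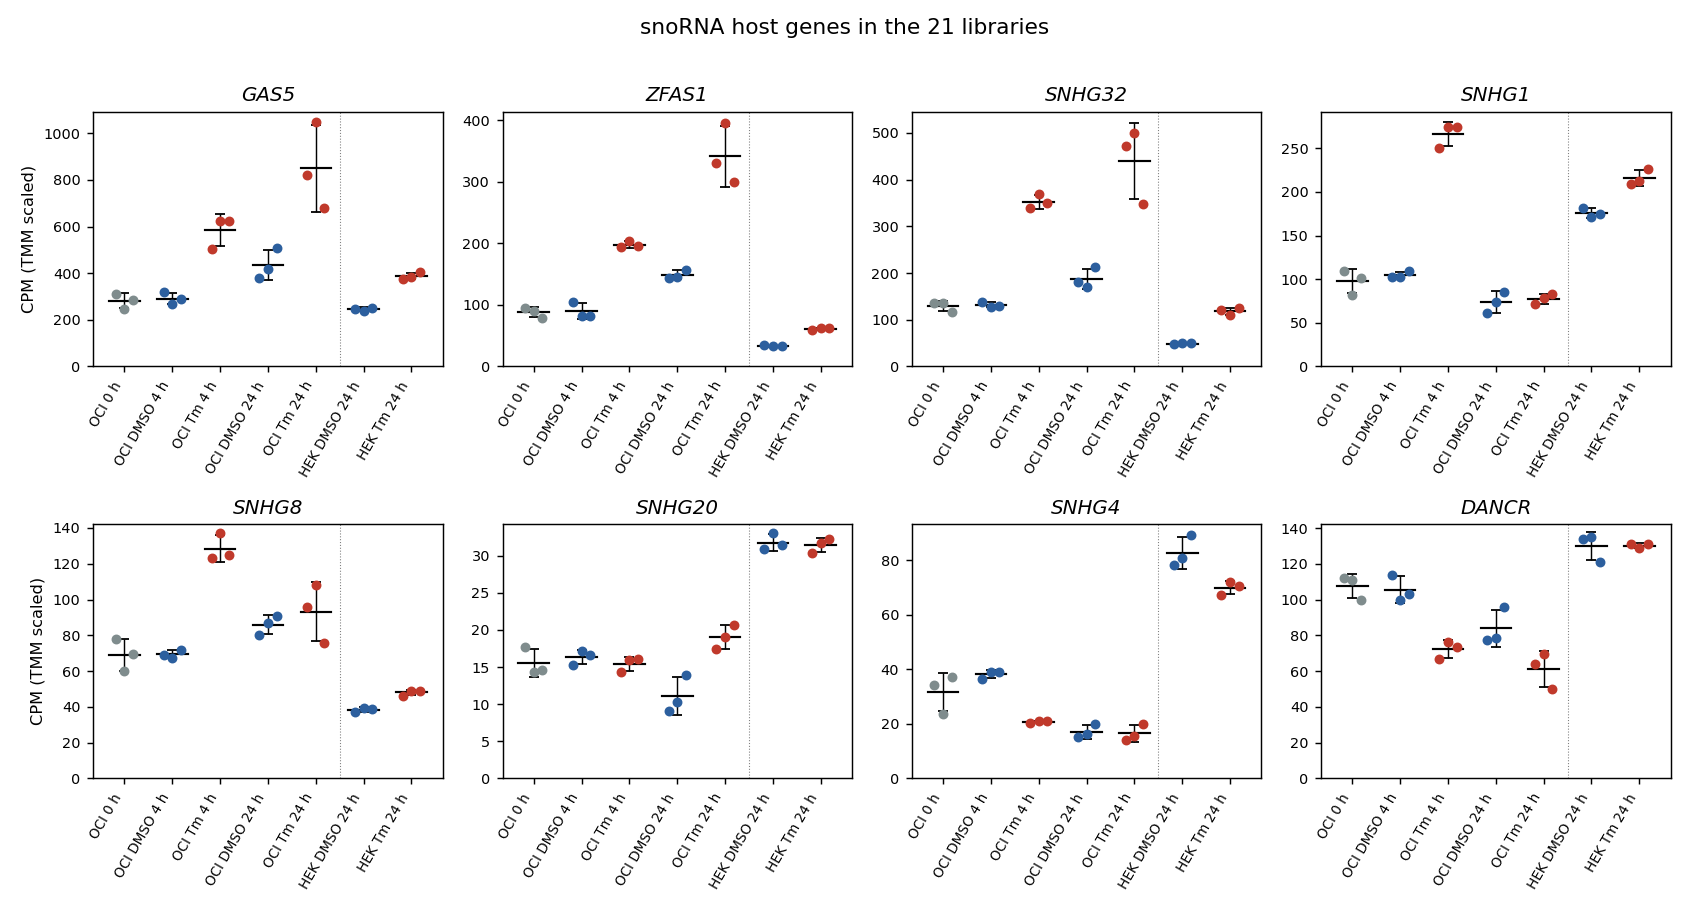
CPM (TMM scaled, axis from 0) of 8 snoRNA host genes in each of the 21 libraries, by group. Points are libraries (grey untreated, blue DMSO, red tunicamycin), horizontal lines group means and bars SD over 3 libraries, and the dotted line divides the cell lines. GAS5, ZFAS1 and SNHG32 rise with tunicamycin in each setting, SNHG1 and SNHG8 mainly at 4 h, and SNHG20 at 24 h in OCI-AML3 cells.

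In HEK293T cells after 24 h of tunicamycin, 7 hosts rose, 1 fell and 14 were not called, against 11.4% and 11.8% of all genes. The median log2 fold change was 0.03, against -0.01 over all genes. SNHG32, the 1 host past a log2 fold change of 1 (1.75% of all genes), stood at 47.5, 49.6 and 49.2 CPM in DMSO and at 121, 109 and 124 CPM with tunicamycin, a 2.41-fold rise (log2 fold change 1.27 ± 0.11, adjusted p = 5.54e-09). ZFAS1 went from 34.0, 32.5 and 32.8 CPM to 59.1, 62.2 and 61.7 CPM, a log2 fold change of 0.88 ± 0.10 (adjusted p = 7.23e-07), and ZNFX1 on the other strand had -0.27 ± 0.09 (adjusted p = 0.0389). GAS5 went from 248, 238 and 252 CPM to 376, 384 and 403 CPM, a log2 fold change of 0.66 ± 0.13 (adjusted p = 0.000498).

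SNHG29 rose in HEK293T cells from 296, 297 and 297 CPM to 453, 449 and 449 CPM, a log2 fold change of 0.60 ± 0.12 (adjusted p = 0.000854), and SNHG5 from 181, 186 and 185 CPM to 281, 278 and 269 CPM, a log2 fold change of 0.58 ± 0.10. The 2 remaining rises were small. SNHG1 went from 182, 171 and 175 CPM to 209, 213 and 226 CPM (log2 fold change 0.29 ± 0.10, adjusted p = 0.031) and SNHG8 had a log2 fold change of 0.32 ± 0.10, and both lost their call when any 1 of the 6 HEK293T libraries was left out, SNHG1 also without TMM (adjusted p of up to 0.127 and 0.106). SNHG16 fell from 189, 185 and 197 CPM to 159, 165 and 135 CPM, a log2 fold change of -0.31 ± 0.09 (adjusted p = 0.0177), and lost its call without replicate 3 of either group (adjusted p of up to 0.124). DANCR did not pass the test there, with 134, 135 and 121 CPM in DMSO and 131, 129 and 131 CPM with tunicamycin.

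GAS5, SNHG5, SNHG29, SNHG32 and ZFAS1, 5 of the 22 hosts, rose in all 3 tunicamycin comparisons, as did 3.91% of all genes tested. All 5 have the pyrimidine run, ZFAS1 in both annotations and the others in 1 of them. With either annotation counted, so do 10 of the 22 hosts and 6.98% of the 16488 genes. The share among all genes that rose in all 3 comparisons was not taken, and the part of the run was not tested. SNHG29 holds its place among the 5 only as far as its calls at 4 h and at 24 h do. No host fell in all 3 comparisons, which 2.89% of all genes did. Summed over the 22 hosts, the RNA came to 2630, 2150 and 2200 CPM in DMSO at 4 h and 3310, 3630 and 3470 CPM with tunicamycin. At 24 h in OCI-AML3 cells the sums were 2610, 2700 and 3250 CPM in DMSO and 4010, 4690 and 3390 CPM with tunicamycin, and in HEK293T cells 1940, 1940 and 1950 CPM and 2410, 2430 and 2430 CPM. These sums are weighted towards the abundant hosts, SNHG29 and GAS5 above all, and the groups did not overlap at any time or in either line.

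Whether the response differed between times was tested with an interaction term, the effect at 24 h minus that at 4 h in OCI-AML3 cells. It was called for 8 of the 22 hosts, 5 lower and 3 higher, and for 2 of the 9 factors, against 29.4% of all genes in either direction. SNHG1 differed most, by -1.27 ± 0.14 (adjusted p = 7.63e-07): its CPM at 24 h were 61.0, 73.9 and 85.7 in DMSO and 71.4, 78.0 and 83.1 with tunicamycin, and these groups overlapped. It was the 1 host past a difference of 1 in size, as were 5.95% of all genes. SNHG8, SNHG11, SNHG7 and SNHG17 also had smaller effects at 24 h, with differences of -0.78, -0.67, -0.61 and -0.47. SNHG20, at 0.87 ± 0.17, had its rise at 24 h. SNHG4, at 0.84 ± 0.20, and SNHG19, at 0.65 ± 0.19, had their falls at 4 h. In SNHG4 both 24 h groups, with 15.2, 16.2 and 20 CPM in DMSO and 14, 15.6 and 19.9 CPM with tunicamycin, lay below the level that tunicamycin had brought about at 4 h. For GAS5, ZFAS1 and SNHG32 the interaction was not called, at -0.04 ± 0.18, 0.06 ± 0.13 and -0.19 ± 0.14, which does not show that their effects were alike.

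Between the lines, the effect in HEK293T cells minus that in OCI-AML3 cells at 24 h was called for 2 hosts and 2 factors, against 21.7% of all genes, with 0 past 1 in size (4.77% of all genes). DANCR differed by 0.46 ± 0.14 (adjusted p = 0.019) and SNHG20 by -0.80 ± 0.16 (adjusted p = 0.00107). SNHG20 stood in HEK293T cells at 30.9, 33.0 and 31.4 CPM in DMSO and 30.4, 31.7 and 32.3 CPM with tunicamycin, above all OCI-AML3 libraries. For GAS5 and ZFAS1 the differences were -0.31 ± 0.18 and -0.32 ± 0.14 and were not called.

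Of the 9 NMD factor genes, 0 passed a log2 fold change of 1 in either direction in any tunicamycin comparison, as 5.29% (4 h), 7.18% (24 h) and 2.53% (HEK293T) of all genes did. At 4 h, 4 rose (SMG5, SMG9, UPF3A and UPF3B), 0 fell and 5 were not called, against 16.4% and 15.6% of all genes higher and lower, with a median log2 fold change of 0.19. At 24 h in OCI-AML3 cells 1 rose and 2 fell, against 22.9% and 21.2%, with a median of 0.04 that lay on either side of 0 under other settings. In HEK293T cells 1 rose and 3 fell, against 11.4% and 11.8%, with a median of -0.08.

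UPF1, the central helicase, had 183, 210 and 195 CPM in DMSO and 190, 176 and 175 CPM with tunicamycin at 4 h, 2 overlapping groups (log2 fold change -0.12 ± 0.09, adjusted p = 0.319). At 24 h it fell from 180, 193 and 155 CPM to 153, 125 and 127 CPM, with no overlap and a log2 fold change of -0.38 ± 0.09 (adjusted p = 0.00125). UPF1 also fell in HEK293T cells, from 189, 183 and 173 CPM to 156, 148 and 139 CPM, a log2 fold change of -0.30 ± 0.09 (adjusted p = 0.0163), and it was not called without DMSO replicate 1 or tunicamycin replicate 3 (adjusted p of up to 0.0755). The interaction terms for UPF1 were not called, at -0.26 ± 0.12 between times (adjusted p = 0.124) and 0.08 ± 0.12 between lines.

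UPF3A, which links UPF1 and UPF2 to exon junction complexes in place of UPF3B, was the factor that rose in all 3 comparisons. Its CPM went from 45.8, 49.5 and 49.8 to 61.5, 62.8 and 62.8 at 4 h, a log2 fold change of 0.37 ± 0.08 (adjusted p = 0.000889). At 24 h they went from 32.1, 34.2 and 39.3 to 43.2, 49.1 and 47.8 (log2 fold change 0.41 ± 0.08, adjusted p = 0.000301), and in HEK293T cells from 24.1, 26.0 and 25.7 to 34.1, 28.9 and 32.8 (log2 fold change 0.34 ± 0.08, adjusted p = 0.00451). The groups did not overlap in any of the 3 comparisons. UPF3B passed at 4 h alone, with a log2 fold change of 0.34 ± 0.13 (adjusted p = 0.0486), and lost its call without DMSO replicate 1 or 2 or tunicamycin replicate 2 or 3 and under 4 other settings (adjusted p of up to 0.262). Its groups overlapped, with 18.5, 24.4 and 28.3 CPM in DMSO and 27.4, 30.5 and 32.8 CPM with tunicamycin, and its log2 fold change ranged from 0.20 to 0.49 over the alternatives, the lowest without DMSO replicate 1.

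Both SMG5 and SMG9 rose at 4 h. SMG5, the adaptor that joins phosphorylated UPF1, went from 206, 202 and 202 CPM to 271, 276 and 269 CPM, a log2 fold change of 0.42 ± 0.06 (adjusted p = 9.59e-06). At 24 h SMG5 had 169, 166 and 157 CPM in DMSO and 169, 161 and 147 CPM with tunicamycin, and the interaction was -0.46 ± 0.09 (adjusted p = 0.000314). SMG9, a subunit of the SMG1 kinase complex, went from 58.8, 61.9 and 56.2 CPM to 80.4, 74.8 and 72.7 CPM at 4 h, a log2 fold change of 0.37 ± 0.07 (adjusted p = 0.000402). At 24 h SMG9 moved the other way, from 57.0, 57.4 and 52.9 CPM to 44.2, 40.5 and 43.0 CPM, a log2 fold change of -0.39 ± 0.08 (adjusted p = 0.000209). The change of direction in SMG9 had an interaction of -0.76 ± 0.10 (adjusted p = 1.28e-05), and the difference between lines was 0.52 ± 0.11, the HEK293T libraries holding 38.1, 41.4 and 35.1 CPM in DMSO and 40.8, 43.9 and 40.4 CPM with tunicamycin.

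The falls in HEK293T cells were those of UPF2, SMG8 and UPF1. UPF2, the bridge between UPF1 and the UPF3 proteins, went from 68.4, 72.5 and 77.6 CPM to 54.0, 57.8 and 58.6 CPM, a log2 fold change of -0.36 ± 0.10 (adjusted p = 0.0105), and was not called without DMSO replicate 3 or tunicamycin replicate 1 (adjusted p of up to 0.0554). In OCI-AML3 cells at 24 h UPF2 had 40.4, 46.2 and 39.6 CPM in DMSO and 47.8, 46.6 and 54.0 CPM with tunicamycin (log2 fold change 0.23 ± 0.10, adjusted p = 0.0722), so that the lines differed by -0.59 ± 0.14 (adjusted p = 0.0047). SMG8, which regulates the SMG1 kinase together with SMG9, went from 58.3, 58.4 and 61.5 CPM to 45.2, 49.5 and 46.8 CPM in HEK293T cells, a log2 fold change of -0.33 ± 0.06 (adjusted p = 0.000298). SMG1 and SMG6 were not called in any tunicamycin comparison, with log2 fold changes between -0.09 and 0.22.

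**Figure D3:**
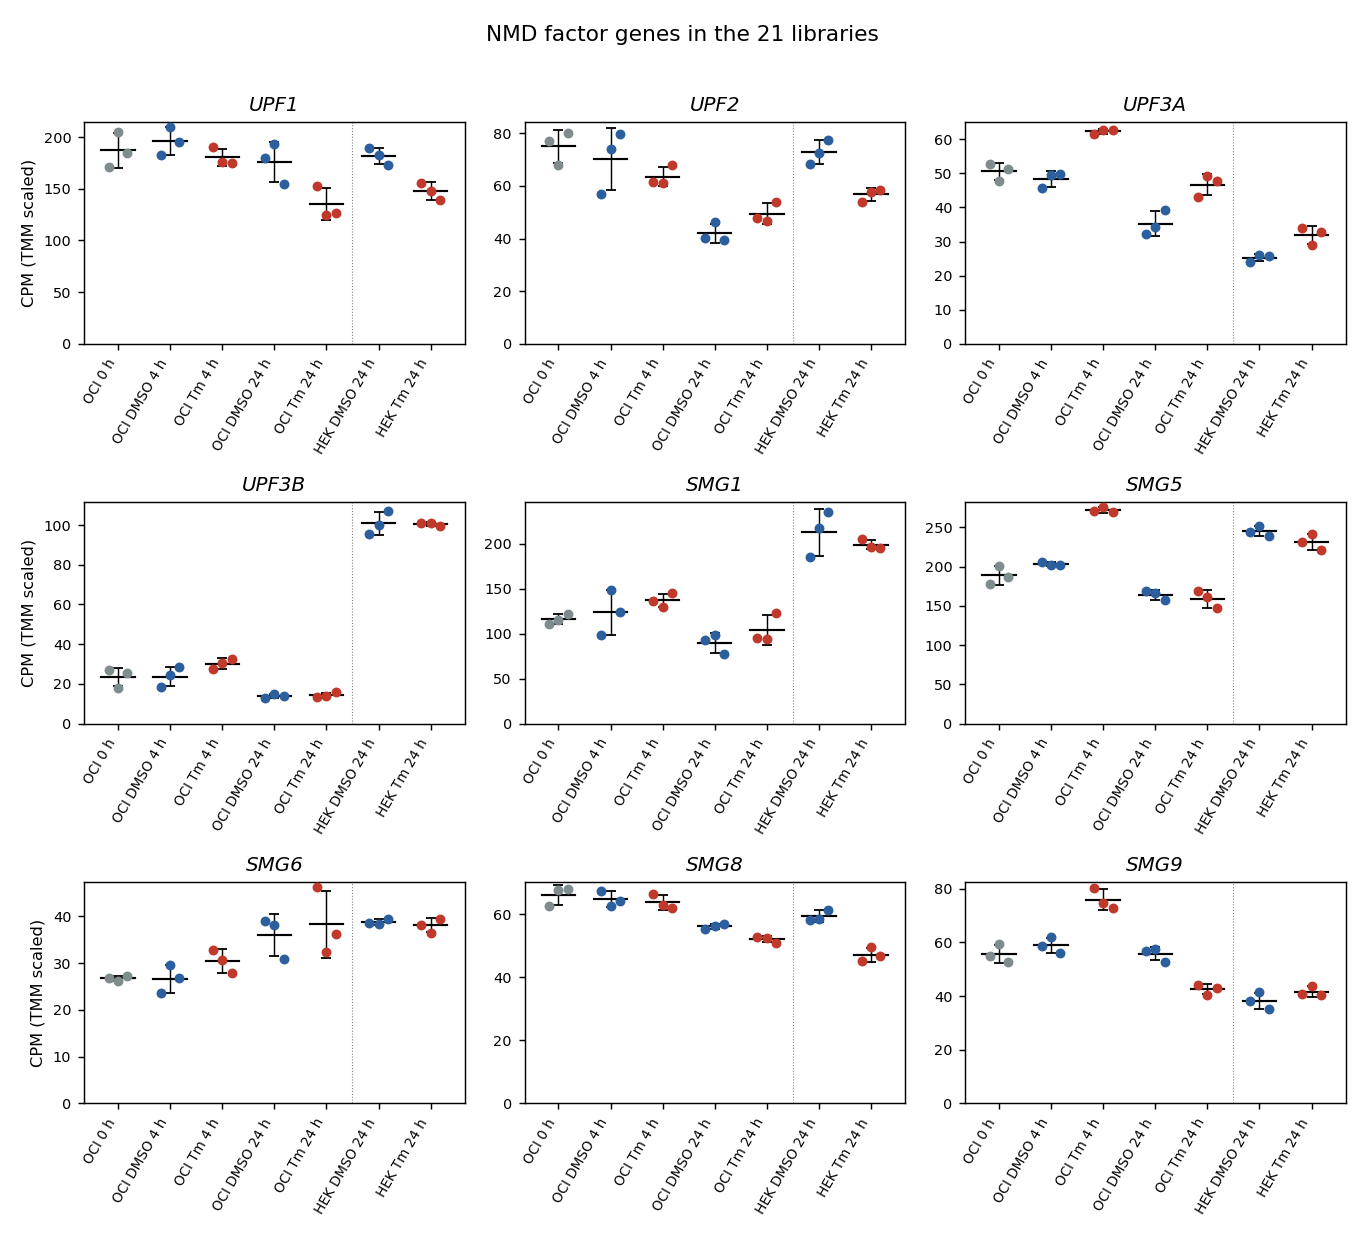
CPM (TMM scaled, axis from 0) of the 9 NMD factor genes in each of the 21 libraries, by group. Points are libraries (grey untreated, blue DMSO, red tunicamycin), horizontal lines group means and bars SD over 3 libraries, and the dotted line divides the cell lines. UPF3A is higher with tunicamycin in each pair of groups, SMG9 is higher at 4 h and lower at 24 h in OCI-AML3 cells, and UPF3B stands near 100 CPM in HEK293T cells against 12.8 to 32.8 CPM in OCI-AML3 cells.

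The control libraries moved between 4 h and 24 h. Hours in culture and hours in DMSO rose together, with no untreated group at 24 h, so the 2 cannot be told apart. Culture time stands for both below. Between untreated cells and DMSO at 4 h edgeR called 0 hosts and 0 factors, and 0 of all genes (0.0%). At an unadjusted p of at most 0.05 there were 1 of 22 hosts, 0 of 9 factors and 1305 of 16556 genes, and limma voom and DESeq2 also called 0 of the 31 genes. Between DMSO at 4 h and DMSO at 24 h, 8 hosts rose and 11 fell, against 17.8% and 18.2% of all genes. ZFAS1 (0.73), SNHG29 (0.63), GAS5 (0.58), SNHG5 (0.53), SNHG32 (0.51), SNHG6 (0.49), SNHG7 (0.37) and SNHG8 (0.31) rose, in log2 fold change. SNHG4 fell by 1.16 ± 0.14 and SNHG12 by 1.00 ± 0.12 on the log2 scale, the 2 hosts past 1 in size (4.48% of all genes), and SNHG3, SNHG17, SNHG20, SNHG1, SNHG11, SNHG10, SNHG19, SNHG16 and DANCR fell by between 0.33 and 0.73. SNHG12 ranged from -1.20 to -0.86 over the alternatives, so that SNHG4 alone was past 1 without replicate 1 or 2 of DMSO at 24 h or replicate 3 of DMSO at 4 h, with DESeq2, with its size factors and with the compared groups alone, while SNHG3 was past 1 as well without replicate 3 at 24 h. Of these 19 calls 6 were lost without 1 library: SNHG6, SNHG7 and SNHG8 without replicate 3 of DMSO at 24 h, DANCR, SNHG10 and SNHG19 without its replicate 1. SNHG7, SNHG8, SNHG10 and SNHG19 also lost it without replicate 2 of DMSO at 4 h, SNHG7 and SNHG19 without replicate 3 and SNHG10 without replicate 1 of that group, and SNHG8 and SNHG10 without replicate 2 at 24 h (adjusted p of up to 0.162 in all). With the compared groups alone SNHG10 and SNHG19 were not called, SNHG19 also not with DESeq2 or with every gene of at least 1 count, and SNHG8 not without TMM (log2 fold change 0.19). Without replicate 3 of DMSO at 24 h the log2 fold changes of SNHG6 and SNHG7 were 0.31 and 0.23. Of the 10 hosts with a pyrimidine run 7 rose and 3 fell, and of the other 12 hosts 1 rose and 8 fell. This split was not tested either.

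Among the factors, UPF3B fell by 0.77, UPF2 by 0.74, SMG1 by 0.46, UPF3A by 0.46, SMG5 by 0.31 and SMG8 by 0.20 on the log2 scale between DMSO at 4 h and at 24 h, and SMG6 rose by 0.43 ± 0.11. SMG1 was not called without replicate 2 of DMSO at 4 h (log2 fold change -0.31, adjusted p = 0.062), and SMG8 not with the compared groups alone or with every gene of at least 1 count (adjusted p of up to 0.110). Since the effect of tunicamycin at 24 h is measured from DMSO at 24 h, which also enters the comparison of the controls, these values stand side by side without a test between them.

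The 2 comparisons that follow share no library with that of the controls over time. In the first, tunicamycin in HEK293T cells, 6 of the 8 hosts that rose with culture time in OCI-AML3 cells were called higher and 0 lower, against 14.7% and 11.8% of all genes that rose with time. Of the 11 hosts that fell with time 1 was called higher (SNHG1) and 1 lower (SNHG16), against 12.8% and 18.4% of all genes that fell. In the second, HEK293T cells in DMSO against untreated OCI-AML3 cells, 7 of the 8 hosts that rose with time were lower in HEK293T cells and 0 higher, against 62.2% and 24.6% of all genes that rose with time (38.9% and 42.9% of all genes tested). Of the 11 hosts that fell with time, 9 were higher in HEK293T cells and 0 lower, against 48.3% and 31.1% of all genes that fell. This comparison was added after the data had been seen. These are counts over few genes and were given no test.

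**Figure D4:**
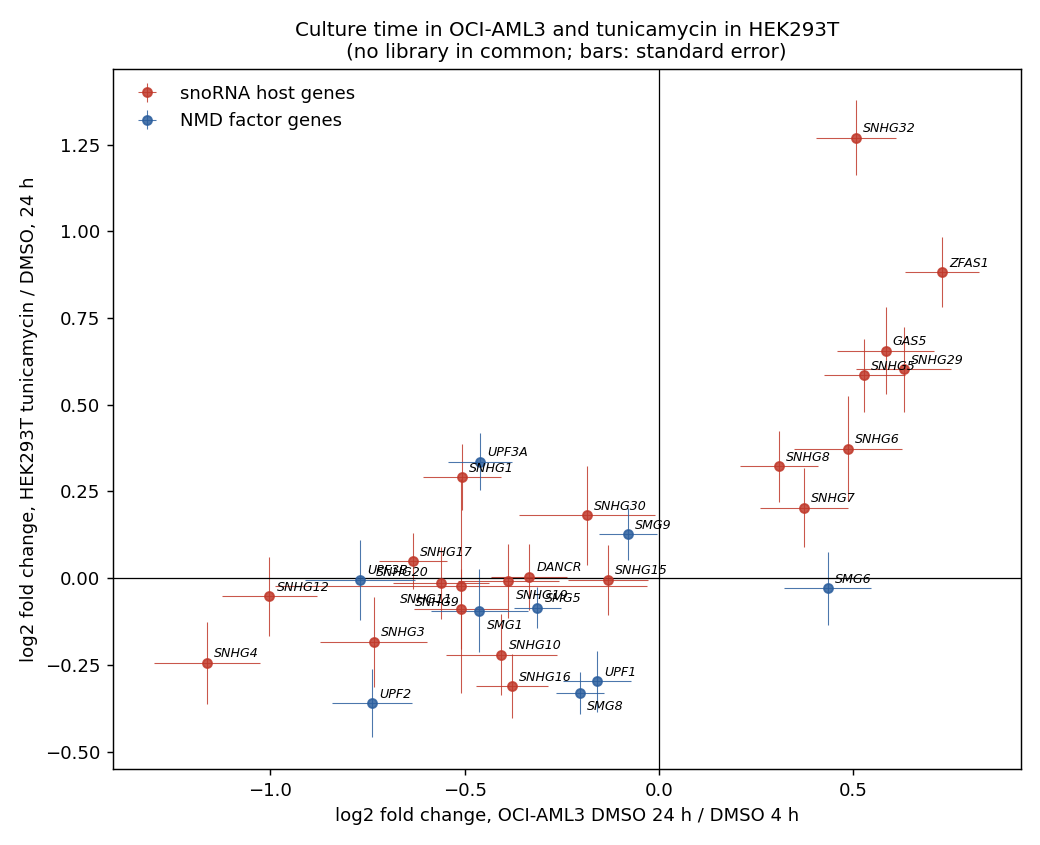
Log2 fold change of DMSO at 24 h over DMSO at 4 h in OCI-AML3 cells (x axis) and of tunicamycin over DMSO at 24 h in HEK293T cells (y axis) for 22 snoRNA host genes (red) and 9 NMD factor genes (blue). Bars are standard errors, and the 2 comparisons share no library. The 8 hosts that rose with culture time lie to the right and between 0.20 and 1.27 on the y axis, and the 11 hosts that fell lie to the left, from -0.31 to 0.29 on the y axis.

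In DMSO at 24 h all 22 hosts differed between the lines, 14 higher and 8 lower in HEK293T cells, where 44.7% and 38.9% of all genes did so, and 14 hosts and 2 factors (UPF3B and SMG1) differed by over 1 in log2 fold change, against 51.6% of all genes. The 22, the 14 higher and the 14 past 1 each include SNHG9. It passed the filter by its HEK293T libraries alone, so its difference was set by that filter and is not read. With the filter of 8 libraries, which left SNHG9 out, 13 hosts were past 1. SNHG6 (log2 fold change -2.49), ZFAS1 (-2.16), SNHG32 (-1.94), SNHG29 (-1.52), SNHG8 (-1.16), SNHG5 (-0.88), GAS5 (-0.83) and SNHG7 (-0.69) were lower. Apart from SNHG9, SNHG4 (2.28), SNHG10 (1.62) and SNHG20 (1.52) were farthest above. SNHG11, SNHG16 and SNHG15, at 0.27, 0.24 and 0.30, lost their call without DMSO replicate 1 or 2 of OCI-AML3 cells, and SNHG11 and SNHG16 also without replicate 2 or 3 of HEK293T cells and SNHG16 without its replicate 1 (adjusted p of up to 0.406). All 3 were also lost with every gene of at least 1 count, and SNHG11 with limma voom, DESeq2, its size factors and the compared groups alone, so that 19 to 22 hosts, SNHG9 among them, were called over these alternatives. Among the factors UPF3B was the most different, with 95.4, 100 and 107 CPM in HEK293T cells against 12.8, 15 and 14 CPM in OCI-AML3 cells, a log2 fold change of 2.85 ± 0.13 (adjusted p = 3.56e-15). SMG1 (1.25), UPF2 (0.79) and SMG5 (0.58) were higher and SMG9 (-0.55) and UPF3A (-0.48) lower, UPF3A being at -0.12 and not called without TMM scaling. Without TMM every log2 fold change shifted by 0.35 in this comparison, by 0.25 in that with untreated OCI-AML3 cells and by -0.12 between DMSO at 24 h and 4 h, and by under 0.05 in those of tunicamycin.

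Other genes of the same processes gave a background to these counts, for which the shares of all genes were 16.4% higher and 15.6% lower at 4 h, 22.9% and 21.2% at 24 h, and 11.4% and 11.8% in HEK293T cells. Of 33 protein-coding snoRNA hosts, most of them ribosomal protein genes, 3 rose and 6 fell at 4 h, 3 rose and 10 fell at 24 h, and 5 rose and 3 fell in HEK293T cells. Their median log2 fold changes were 0.01, -0.17 and 0.18. HSPA8, a chaperone gene that hosts snoRNAs, fell in all 3 comparisons, by 1.92, 0.72 and 0.55 on the log2 scale. A pyrimidine run was found at the start of 16 of the 33 (48.5%, GENCODE). Between DMSO at 4 h and 24 h, 25 of the 33 rose and 6 fell, against 17.8% and 18.2% of all genes. Of 4 further noncoding hosts tested, EPB41L4A-AS1 rose in all 3 comparisons, by 1.18, 0.62 and 0.57, and the others were not called. Of 10 snoRNP proteins and their assembly factors, 0 rose and 1 fell at 4 h, 0 rose and 8 fell at 24 h (among them FBL, the box C/D methyltransferase, at -0.70, and NOP10 at -0.75), and 1 rose and 3 fell in HEK293T cells.

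The same shares of all genes, 16.4% and 15.6%, 22.9% and 21.2%, and 11.4% and 11.8%, stand beside the counts that follow. Of 16 other NMD and exon junction complex factors, 3 rose and 4 fell at 4 h, 1 rose and 9 fell at 24 h, and 1 rose and 2 fell in HEK293T cells. PNRC2, a decapping co-activator, rose by 0.41 and 0.75 in OCI-AML3 cells, while EIF4A3, the helicase of the exon junction complex, had -0.37 and -0.65 there and -0.16 in HEK293T cells, where it was not called. RUVBL2 and RUVBL1, which act on SMG1 and on snoRNP assembly alike, fell at 24 h by 0.99 and 0.79. Of 9 coding mRNAs described as NMD substrates, 8 rose at 4 h, 7 at 24 h and 6 in HEK293T cells, and 0 fell. IFRD1 rose by 1.26, 0.93 and 1.29 and TBL2 by 0.46, 0.52 and 0.54 in log2 fold change. ATF4, ATF3 and GADD45A, which also rose in all 3 comparisons, are induced by the UPR as well. The part of either process was not tested for any of the 9, IFRD1 and TBL2 included.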

How the data were processed

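The authors prepared poly(A)-selected libraries, aligned the reads to GRCh38 (hg38) with STAR and quantified genes with RSEM. They deposited RSEM expected counts per gene, neither normalized nor filtered, in which a read that maps to several genes is shared between them. Genes with close copies or overlapping neighbours are therefore less certain, and whether counting used the strand is not given in the sources used here. Per library, 3.54 to 4.22% of the values of all 60671 genes, zeros included, had a fractional part. All were rounded, and all 21 columns were matched to samples (0 unmatched). Depth was 13838466 to 19961798 counts, and a count of 0 allows up to 3 counts, 0.131 to 0.230 CPM.

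Counts of genes that reached 1 CPM in 3 or more libraries were scaled by TMM (factors 0.896 to 1.16), and edgeR 4.0.16 (R 4.3.3) gave a quasi-likelihood fit of 7 group means without a replicate block. The study used limma voom and a filter of 8 libraries, which are alternatives here, beside DESeq2 (1.42.0; limma 3.58.1), its size factors, no TMM, every gene with at least 1 count, the compared groups alone, a replicate block, a fold change threshold and each library left out. A standard error is the size of the log2 fold change over the root of its F statistic. On simulated data for the 4 h comparison (16556 genes), 61% of 100 genes changed by 0.4 and 98% of 100 genes changed by 1 on the log2 scale were recovered, with 10 false calls. Those counts were drawn from the kind of model that was fitted, with otherwise equal means in all OCI-AML3 groups. Changes were placed only in genes above a minimum expected count.

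The members and all lists were chosen with earlier results of these data known. Given in full were GAS5, UPF1 and, in each tunicamycin comparison, the 3 hosts and 2 factors farthest from 0 in each direction among those called. Libraries of other members were added where a result turned on them, after their values had been seen. Of other lists, at most the 3 members farthest from 0 each way are named, and TBL2 was added after its values had been seen. Splicing, protein and qPCR data were not used here. Start windows are from GENCODE release 44 and RefSeq, gene spans from GENCODE and snoRNA positions from RefSeq. SNHG6 was left without a printed start. Figures were drawn with matplotlib 3.10.9.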

Additional observations from a re-analysis of the deposited data

Results flagged for a closer look

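The effect of tunicamycin differed between times or lines, by an interaction term, in 14 cases (log2 scale, adjusted over 16556 genes), 10 of the 31 genes over time and 4 between lines, where 29.4% and 21.7% of all genes did. Over time in OCI-AML3 cells (24 h minus 4 h), it was smaller or reversed at 24 h for SNHG1 (-1.27), SNHG8 (-0.78), SMG9 (-0.76), SNHG11 (-0.67), SNHG7 (-0.61), SNHG17 (-0.47) and SMG5 (-0.46). It was higher at 24 h for SNHG20 (0.87), SNHG4 (0.84) and SNHG19 (0.65), the last being lost without replicate 1 of either group at 24 h, with the compared groups alone and with every gene of at least 1 count (adjusted p of up to 0.0603). Between HEK293T and OCI-AML3 cells at 24 h, the effect was higher in HEK293T cells for SMG9 (0.52) and DANCR (0.46) and lower for SNHG20 (-0.80) and UPF2 (-0.59). Both terms hold the whole effect in OCI-AML3 cells at 24 h and so share its 3 DMSO and 3 tunicamycin libraries, and a gene named for both, such as SNHG20 or SMG9, is not seen in separate libraries.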

How the results depend on the processing

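No result changed direction while called. The 42 calls of hosts and factors in the 3 tunicamycin comparisons had 588 values under alternatives, of which 535 kept the call and 53 lost it, the losses falling on 11 of the 42 calls (SNHG12, SNHG16, SNHG29 and UPF3B at 4 h, SNHG17 and SNHG29 at 24 h, and SNHG1, SNHG8, SNHG16, UPF1 and UPF2 in HEK293T cells). With a log2 fold change past 1 required as well, the hosts called higher were 4 at 4 h (3 to 5 when another setting was changed too, GAS5 being under 1 in 8 of 14), 2 at 24 h (3 with GAS5, without replicate 3 of either group) and 1 in HEK293T cells, and those lower 0 in each. Factors were 0 in each direction, and 0 between DMSO at 24 h and 4 h, where 2 hosts remained. Between lines 14 hosts, SNHG9 among them, and 2 factors remained, and of the interactions 1 host and 0 factors over time and 0 and 0 over lines.

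Hosts called lower at 24 h, 1 in the main test, were 2 with DESeq2, 2 with the filter of 8 libraries, 2 with every gene of at least 1 count, and 1 to 3 with 1 library left out, the 3 being without DMSO replicate 1. Hosts lower in HEK293T cells, 1 in the main test, were 3 with the compared groups alone and 0 to 1 with 1 library left out, 0 without replicate 3 of either group. Factors lower at 4 h were 0 to 1, the 1 without DMSO replicate 1. Hosts whose effect differed between lines, 2 in the main test, were 4 with every gene of at least 1 count and 2 to 4 with 1 library left out, the 4 without replicate 2 of tunicamycin at 24 h. The cause was not tested.

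No clear pairing by replicate number was seen, though 3 libraries a group cannot exclude it. Same-numbered libraries had correlations of deviations of -0.09 to 0.21 at 4 h, -0.19 to 0.000136 at 24 h and 0.0445 to 0.214 in HEK293T cells. In these comparisons 3, 0 and 4 of 6 libraries correlated best with their own number. The replicate block raised the factors called higher at 24 h from 1 to 2 and moved no other count by over 1.5 times. With 3 libraries a group, changes near 0.4 on the log2 scale were often missed in simulated data, so a gene not called may still have changed by that much. The simulation covered the 4 h comparison and genes above a minimum count, so recovery elsewhere was not measured.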
